A study of Mus musculus with 10 samples.

Results

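The transcription factor p53 and 9 genes that it switches on after DNA damage were followed in mouse granulocyte-macrophage progenitors (GMPs) that had recently lost Mpc2. The 10 genes were Trp53, which encodes p53, and the targets Cdkn1a, Mdm2, Bbc3, Pmaip1, Ccng1, Trp53inp1, Phlda3, Eda2r and Zmat3. They were chosen by name, with earlier results of these data known, and the rule uses no measured value. All 10 passed the filter on low counts, out of 12381 genes tested and 51717 genes with a transcript in the files.

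p53 is made and destroyed continuously. After a double-strand break, kinases such as ATM and CHK2 modify the protein, it escapes its ubiquitin ligase MDM2, and it binds paired half-sites near its target genes. In blood progenitors this response can stop the cell cycle through p21, the product of Cdkn1a, or start cell death through PUMA and NOXA, the products of Bbc3 and Pmaip1. Because p53 is controlled mainly at the level of the protein, the RNA of its targets is the usual readout of its activity, and Trp53 RNA is not.

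The comparison asks whether these genes stood higher where Cre had cut floxed alleles, since Cre recombinase breaks DNA at loxP sites. The 5 recent KO samples came from male Mpc2 fl/fl; ROSA26 CreER+/- C57Bl6/N mice, in which tamoxifen removes exon 3 of the mitochondrial pyruvate carrier gene Mpc2. The 5 WT samples came from male ROSA26 CreER+/- mice with no floxed allele. In both groups CD45.2+ GMPs were sorted from chimeras, made by giving donor marrow to irradiated CD45.1 hosts that then reconstituted for at least 8 wk. All chimeras ate tamoxifen chow for 2 wk up to sampling. The paper describes mixed chimeras, given WT CD45.1 marrow along with the donor marrow, and full chimeras without it. Its RNA-seq methods do not say which were used, but its full Mpc2 KO chimeras did not survive 2 wk of tamoxifen. The CreER fusion protein is driven by the ubiquitously active ROSA26 locus. Each WT sample was 1 mouse and each recent KO sample a pool of 2 mice, with 10 mice in the recent KO group. Every sample therefore had CreER and tamoxifen, so a p53 response to those alone would be shared by both groups and is not measured by their difference. Cutting at loxP, loss of Mpc2 and pooling of mice changed together and cannot be told apart. When in the 2 wk the alleles were cut was not measured. A response that was over before sampling would not be seen.

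Depth ran from 14033776 to 19745405 estimated reads per sample, and a floor of 3 reads corresponded to 0.153 to 0.215 counts per 1000000 reads (CPM), the unit used below after TMM scaling between libraries. The deleted gene followed the labels. Mpc2 (chr1:165460637-165481214 in GRCm38, plus strand) was at 61, 111, 95.2, 117 and 60.9 CPM in WT replicates 1 to 5 and at 27.7, 17.1, 43.9, 37 and 35 CPM in recent KO replicates 1 to 5, with no overlap and a log2 fold change of -1.46 ± 0.24 (SE, n = 5 and 5; adjusted p = 0.0156, edgeR's quasi-likelihood test). It stayed lower under every alternative, but with adjusted p of 0.0577 to 0.411 for length offsets, robust dispersions, the replicate block and limma, and 0.05002 without recent KO replicate 1. Markers of GMPs were abundant in every sample, with Mpo at 31826 to 69039 CPM. The summed level of 12 GMP markers was 90249 to 127535 CPM among WT samples and 53897 to 92178 among recent KO samples, and 0 of the 12 changed at an adjusted p under 0.05 (0.331% of all genes), while 7 of the 12 were lower at an unadjusted p under 0.05 (5.35% of all genes). Of 7 monocyte markers 0 were called and 5 were lower at an unadjusted p under 0.05. Late neutrophil and megakaryocyte markers also had 0 called, with 4 of 7 and 3 of 3 tested markers higher at an unadjusted p under 0.05 (4.89% of all genes). The B cell regulators Ebf1 and Pax5 had at most 3 reads in any sample, while the 6 listed B cell markers summed to 56.2 to 66.0 CPM across WT and 49.1 to 65.0 across recent KO samples, nearly all of it from Cd79b. Of 7 tested markers of marrow macrophages, C1qa, C1qb and C1qc rose in recent KO (adjusted p = 0.041, 0.016 and 0.038 by edgeR), and the summed level of 9 listed macrophage markers was 16.7 to 35.4 CPM across WT and 38.6 to 70.1 across recent KO samples. The summed level of 8 erythroid markers was 9.10 to 42.3 CPM across WT and 24.4 to 208 across recent KO samples. Of 7 tested, 0 were called, 7 were higher and 5 were higher at an unadjusted p under 0.05. Of 5 tested stem cell markers, 0 were called, 5 were higher and 1 was higher at that threshold. Of 6 basophil and mast cell markers, 0 were called, and 2 were higher and 1 lower at that threshold. The part of these cells in the values below was not tested. In bulk RNA, fewer cells of a type and less RNA per cell cannot be told apart.

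The element that p53 binds could be read in front of 2 of the targets. RefSeq windows of 300 bases (250 before to 50 after a start site, GRCm38.p6) were at hand for 7 of the 10 genes, in 10 windows; Pmaip1, Trp53inp1 and Zmat3 had none. Each window was searched on both strands for the p53 response element, 2 adjoining half-sites of 20 bases in all, with the core C and G of each half-site intact and at most 2 mismatches elsewhere. The search found 1 element before Cdkn1a and 1 before Ccng1, each with 1 mismatch, against 107 of 32851 windows over all genes (0.326%). Both are printed here, as the places where p53 could act on members directly, with 20 bases on each side and the element in capitals. The Cdkn1a element lies on the plus strand of chr17:29090908-29090967 and ends 31 bases before the upstream start site of the gene. The Ccng1 element lies on the minus strand of chr11:40755442-40755501, 175 bases before the start site.
Cdkn1a: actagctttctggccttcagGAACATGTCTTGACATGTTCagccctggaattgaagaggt
Ccng1: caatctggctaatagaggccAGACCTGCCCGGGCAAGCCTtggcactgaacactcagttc
The Cdkn1a element holds ACATGT in both half-sites. That hexamer stood at least once in 5.28% and 2 or more times in 0.329% of all windows, and 1 copy stood in the window of Phlda3. A match is a description of the letters, not of binding, and the other windows say nothing of elements that lie further away or inside introns.

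No member passed the test between recent KO and WT. By edgeR, 0 of 10 had an adjusted p under 0.05, where 0.331% of all tested genes did (41 genes). Of these, 15 were higher in recent KO (0.121% of all tested genes) and 26 lower (0.21%). The 41 became 91 without recent KO replicate 2, 25 without replicate 3 or 4 and 26 without WT replicate 3, and the members called were 0 in each. With so small a background share, a count of 0 among 10 genes says little by itself, and the intervals below carry more. At an unadjusted p under 0.05 the count was also 0 of 10, where 10.2% of all genes passed (4.89% higher and 5.35% lower in recent KO). The smallest unadjusted p was 0.420, for Cdkn1a, and adjusted p ranged from 0.847 to 0.999. DESeq2 called 0 of 10 members (1.09% of its genes) and limma on log2(TPM + 1) 0 of 8 (0.242%); with no filter on low counts edgeR called 0 of 10 (0.738%). Values of the groups overlapped for all 10 members, where 2.43% of all genes did not overlap. The median log2 fold change of the members was -0.05, with 3 higher and 7 lower, beside -0.002 over all genes. The split turned to 7 higher and 3 lower when libraries were scaled by size alone (median 0.02) and when WT replicate 2 was left out (median 0.05).

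The intervals limit how large a difference these samples allow at the time of sampling, not at the time of cutting. The upper 95% bound of the fold change of recent KO over WT lay between 1.09 for Trp53 and 1.85 for Eda2r. It was under 2-fold for 10 of 10 members and under 1.5-fold for 8. In this fit a rise of 2-fold or more thus lies outside the interval of every member. For Eda2r and Zmat3 the interval includes a rise of 1.5-fold. Over 11 other settings the log2 fold change of Eda2r ran from 0.04 to 0.46, the highest with length offsets. Bounds under those settings are not given here.

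**Figure D1:**
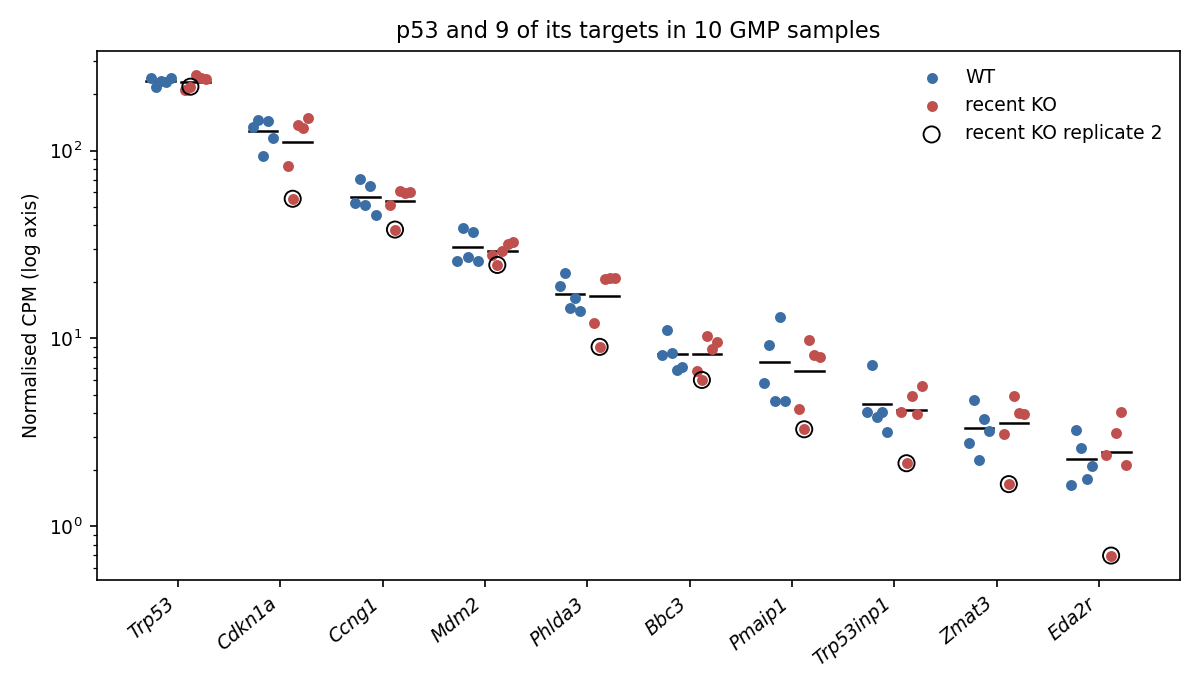
Normalised CPM (log axis) of the 10 genes in each sample, WT in blue and recent KO in red, with black bars for group means; genes are ordered by their WT mean. The groups overlap for all 10 genes, and recent KO replicate 2 (ringed) is the lowest of the 10 samples for 9 of them.

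Trp53 (chr11:69580359-69591873, plus strand; this and the next positions are GRCm38) was the most abundant member and the steadiest. It was at 243, 218, 234, 230 and 243 CPM in WT and at 211, 219, 253, 242 and 240 CPM in recent KO, in order of replicate. The samples of the groups were interleaved, and recent KO held both the lowest and the highest value. The log2 fold change was -0.01 ± 0.06 (SE; 95% interval -0.14 to 0.13, adjusted p = 0.988, edgeR, n = 5 and 5), the narrowest interval of the 10.

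Cdkn1a (chr17:29090976-29100727, plus), whose product p21 inhibits cyclin-dependent kinases, had a downward estimate. Its level was 134, 146, 93.3, 143 and 117 CPM in WT, and 82.5, 55.4, 137, 132 and 150 CPM in recent KO. Recent KO replicates 1 and 2 lay below every WT sample, replicates 3 and 4 within the WT range and replicate 5 above it. The log2 fold change was -0.18 ± 0.22 (95% interval -0.66 to 0.29, adjusted p = 0.847, edgeR). An exact two-sided permutation test over the 10 samples gave p = 0.468, where the smallest p the design allows is 0.00794. The spread of log2 CPM between samples was 0.606 (SD) in recent KO and 0.265 in WT, beside medians of 0.137 and 0.120 over 7154 genes of at least 10 CPM.

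The shares of the start sites of Cdkn1a overlapped between the groups. Cdkn1a-202 begins at position 29090979, just past the element printed above, and Cdkn1a-201 begins further in, at 29093769. Cdkn1a-202 took 47.1, 25.6, 27.6, 32.5 and 45.1% of the gene's estimated reads in WT, and 27.5, 24.1, 27, 27.9 and 39.8% in recent KO. The group means were 35.6% ± 9.93 and 29.3% ± 6.11 (SD, n = 5 each; exact permutation p = 0.230). Cdkn1a-201 took 61.4% of reads in WT and 68.1% in recent KO (exact permutation p = 0.198). Over 18 transcripts of the 10 genes that took at least 10% of reads in the mean of a group, 0 differed in share after adjustment (all adjusted p = 1.0). The split is Salmon's estimate: nearly identical transcripts of Trp53 and of Zmat3 traded reads from sample to sample, and those shares are not read further here. The annotation also places AC167363.2, a locus of unsettled type, across 1046 bases of Cdkn1a on the opposite strand. The library kit is not stated to keep strand, so their reads may mix; AC167363.2 held 3.60 CPM in WT and 3.14 in recent KO samples on average (adjusted p = 0.914, edgeR).

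**Figure D2:**
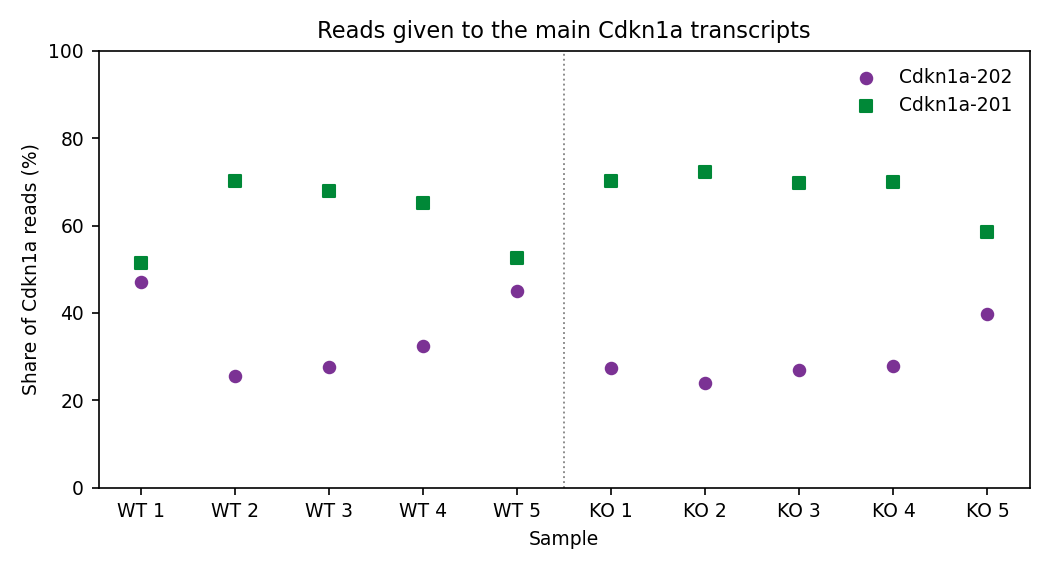
Share of the estimated Cdkn1a reads (%) given to Cdkn1a-202, which starts beside the p53 element, and to Cdkn1a-201, in each WT and recent KO sample. The share of Cdkn1a-202 runs from 25.6 to 47.1% in WT and from 24.1 to 39.8% in recent KO, and the groups overlap.

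Members that act back on p53 or mark its activity in growth arrest passed no test either. Mdm2 (chr10:117688875-117710758, minus), the ligase that p53 induces and that degrades it, was at 25.7, 38.6, 27.1, 36.8 and 25.7 CPM in WT and at 27.9, 24.6, 29.1, 32 and 32.4 CPM in recent KO. Of the 5 recent KO values, 4 lay within the WT range and 1 below it, with a log2 fold change of -0.07 ± 0.13 (95% interval -0.35 to 0.20, adjusted p = 0.897, edgeR). Ccng1 (chr11:40748552-40755311, minus) encodes cyclin G1, which guides a phosphatase to MDM2. It stood at 52.4, 70.4, 51.3, 64.7 and 45.5 CPM in WT and 51.3, 38, 60.9, 59.8 and 60.3 CPM in recent KO, where again 4 of 5 recent KO values fell within the WT range. The log2 fold change was -0.07 ± 0.14 (adjusted p = 0.911, edgeR). Zmat3 (chr3:32334792-32366014, minus) encodes an RNA-binding protein and Trp53inp1 (chr4:11156431-11174379, plus) a nuclear partner of p53; they were the lowest members per unit of length. Zmat3 ranged from 2.26 to 4.71 CPM (median 3.23) in WT and from 1.68 to 4.94 CPM (median 3.97) in recent KO, a log2 fold change of 0.10 ± 0.27. Trp53inp1 ranged from 3.17 to 7.27 CPM (median 4.04) in WT and from 2.17 to 5.57 CPM (median 4.08) in recent KO, a log2 fold change of -0.10 ± 0.26.

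None of the members that lead to cell death passed the test. Bbc3 (chr7:16308393-16318205, plus), encoding the BCL-2 antagonist PUMA, was at 8.17, 11.1, 8.37, 6.76 and 7.06 CPM in WT and at 6.68, 6.01, 10.4, 8.83 and 9.54 CPM in recent KO. The group means were nearly equal, 8.29 ± 1.71 and 8.28 ± 1.86 CPM (SD), with a log2 fold change of 0.00 ± 0.17 (95% interval -0.37 to 0.38, adjusted p = 0.999, edgeR). Pmaip1, encoding the related protein NOXA, was at 5.82, 9.21, 4.63, 13 and 4.67 CPM in WT and at 4.22, 3.29, 9.82, 8.16 and 7.94 CPM in recent KO. This gene varied widely inside both groups, so that its interval ran from -0.84 to 0.58 around a log2 fold change of -0.13 ± 0.33. Phlda3 (chr1:135766119-135769136, plus), which restrains the survival kinase AKT, was at 19, 22.2, 14.5, 16.4 and 13.9 CPM in WT and at 12, 9.02, 20.8, 20.9 and 20.9 CPM in recent KO. Recent KO replicates 1 and 2 lay below all WT samples and the other recent KO samples near the top of the WT range, and the log2 fold change was -0.04 ± 0.22 (95% interval -0.50 to 0.43). Eda2r (chrX:97333840-97377216, minus), a receptor of the TNF receptor family, was the least certain member: it rested on 10 to 67 reads per sample, 1.66 to 3.27 CPM in WT and 0.70 to 4.08 CPM in recent KO. Its log2 fold change was 0.12 ± 0.35 (95% interval -0.64 to 0.89).

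**Figure D3:**
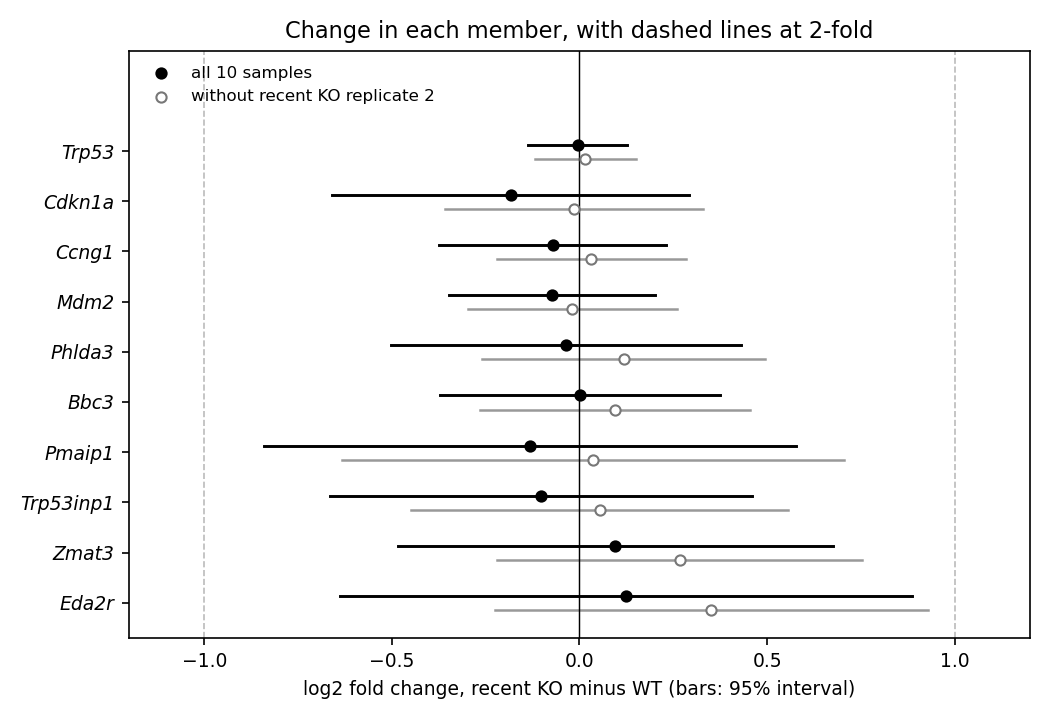
Log2 fold change, recent KO minus WT, for each of the 10 genes with its 95% interval from edgeR, for all 10 samples (filled) and without recent KO replicate 2 (open); dashed lines mark 2-fold. Every interval includes 0 and lies inside the dashed lines, and over all 10 samples the widest is that of Eda2r.

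Scaled for transcript length as TPM, in which the transcripts of a sample sum to 1000000, the 10 levels spanned more than 2 orders of magnitude. Trp53 stood highest, at 120 ± 11.3 TPM in WT and 124 ± 13.5 TPM in recent KO (SD, n = 5 each), followed by Cdkn1a at 95.8 ± 22.4 and 82.1 ± 34 TPM. Trp53 was above Cdkn1a in 10 of 10 samples, although their ranges over all samples met. A wide gap followed, with no overlap, down to Ccng1 (13.3 ± 2.21 and 13.4 ± 2.61 TPM), Phlda3 (11.6 ± 2.58 and 11.7 ± 4.22 TPM) and Mdm2 (10.02 ± 1.89 and 9.98 ± 1.63 TPM), whose ranges overlapped. Bbc3 was at 5.37 ± 0.688 and 4.87 ± 1.6 TPM, below Mdm2 in every sample. Pmaip1 (2.30 ± 1.02 and 2.22 ± 0.984 TPM) and Eda2r (1.33 ± 0.484 and 1.89 ± 1.11 TPM) overlapped, and so did Trp53inp1 (0.732 ± 0.245 and 0.644 ± 0.206 TPM) and Zmat3 (0.373 ± 0.118 and 0.422 ± 0.149 TPM). Among the targets, then, the gene for the cell cycle inhibitor p21 was listed far above the genes for PUMA and NOXA in both groups.

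Most members were low in the same 2 recent KO libraries. Recent KO replicate 2 had the lowest CPM of the 10 samples for 9 of 10 members, where it was lowest for 14.2% of all tested genes. The exception was Trp53, lowest in recent KO replicate 1. Recent KO replicates 1 and 2 both lay below replicates 3, 4 and 5 for 8 of 10 members and for 16.8% of all tested genes. Replicate 1 was below the gene mean for 9 of 10 members in log2(CPM + 0.5). That split was seen after the values and carries no test. On the log2(CPM + 0.5) scale, with each gene centred on its mean over the 10 samples, the median of the members was -0.80 in recent KO replicate 2. In recent KO replicates 1, 3, 4 and 5 it was -0.12, 0.29, 0.17 and 0.22. In WT replicates 1 to 5 it was -0.04, 0.43, -0.12, 0.08 and -0.20. The highest of these was WT replicate 2, which held the top value for 5 of 10 members. All genes together centred near 0 in each sample. In log2(TPM + 0.1), recent KO replicate 2 was lowest for 5 of 10 members and 8.39% of all tested genes, so the count depends on the scale, while the median of the members was again lowest in that sample, at -0.65.

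A weaker and uneven lean appeared in targets outside the 10. Of 35 other tested p53 targets, 14 (40%) had their lowest CPM in recent KO replicate 2. Their median deviation was -0.17 there, -0.07 in recent KO replicate 1 and 0.20 in WT replicate 2. Recent KO replicates 1 and 2 both lay below replicates 3, 4 and 5 for 13 of the 35, beside 16.8% of all tested genes. By list these were 6 of 9 growth arrest, 3 of 10 cell death and 4 of 16 repair and metabolism targets. Among genes that regulate p53 the lowest value fell in recent KO replicate 2 for 3 of 19, among genes of double-strand break repair for 2 of 18, and among cell cycle genes that p53 lowers through the DREAM complex for 3 of 16. These shares are near that of all genes. They are descriptions of single samples and carry no test, since the sample was singled out after its values were seen. The depth of that library was the lowest, at 14033776 estimated reads, but close to the 14133706 of WT replicate 4, where the median of the members was 0.08. Other values stood out in the same library. It had the lowest Mpc2 level and the highest summed late neutrophil markers (731 CPM, with 113 to 497 in recent KO replicates 1, 3, 4 and 5). Its summed macrophage markers were also the highest (70.1 CPM). Its erythroid markers summed to 28.0 CPM and those of recent KO replicate 1 to 24.4 CPM, against 208, 143 and 126 CPM in replicates 3, 4 and 5. The part of depth or of other cells in the low member levels was not tested.

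**Figure D4:**
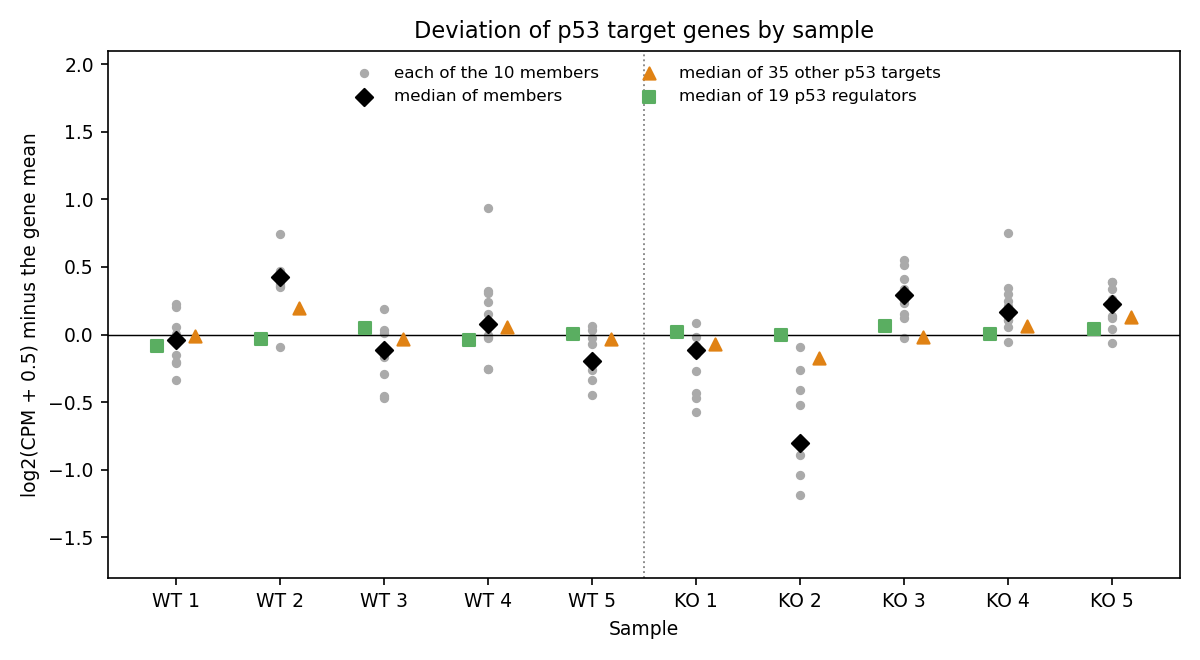
Deviation of log2(CPM + 0.5) from each gene's mean over 10 samples, for the 10 members (grey points, black diamonds for their median) and the medians of 35 other p53 targets and 19 p53 regulators, by sample. The median of the members is -0.80 in recent KO replicate 2 and 0.43 in WT replicate 2, while the medians of the regulators stay near 0.

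Recent KO replicate 2 was singled out for its low member levels. Leaving it out was therefore bound to raise most estimates and narrow the spread in recent KO, and the shifts below carry no test. Without it no member had an adjusted p under 0.05. No fit left out recent KO replicates 1 and 2 together. Cdkn1a went from -0.18 to -0.01 ± 0.16 (adjusted p = 0.983, edgeR), Phlda3 from -0.04 to 0.12 ± 0.17, Zmat3 from 0.10 to 0.27 ± 0.23 and Eda2r from 0.12 to 0.35 ± 0.27 (adjusted p = 0.640). Without that library 8 members were higher and 2 lower in recent KO, with a median of 0.04. The upper bounds of the fold change were then 1.11 to 1.91, still under 2-fold. With all samples, the SD of log2(CPM + 0.5) was larger in recent KO than in WT for 9 of 10 members, Mdm2 being the exception, and for 57.0% of all tested genes. Without recent KO replicate 2 it was larger for 4 of 10 members and 47.9% of all tested genes.

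Genes around p53 were read in 6 further lists. These held 91 genes, 88 of them tested, and by edgeR 0 passed an adjusted p under 0.05. At an unadjusted p under 0.05 there were 7 (7.95%), 4 higher and 3 lower in recent KO, beside 10.2% of all genes. The 7 were not spread evenly. Other p53 targets held 6, out of 35 tested, with 3 higher and 3 lower. Regulators of p53 held 0 of 19, break repair genes 0 of 18 and cell cycle genes 1 of 16. No list was tested as a set. DESeq2, which called 1.09% of its genes, called 1 of the 88, Gpx1. Trp63 and Trp73, the paralogs of Trp53, were too low to test.

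The regulators of p53 comprised kinases, ligases, acetylases and nucleolar proteins. Of 19 tested, 12 were higher and 7 lower (median log2 fold change 0.04), and 0 passed at either threshold. The smallest p belonged to the damage kinases Atr, at 10.7 ± 0.664 CPM in WT and 12.2 ± 0.965 in recent KO (SD; log2 fold change 0.19 ± 0.09, unadjusted p = 0.061, adjusted p = 0.510 by edgeR), Chek2 (-0.23 ± 0.15) and Prkdc (-0.16 ± 0.11). Cdkn2a, whose p19ARF product holds back MDM2, had no reads in any sample.

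Of 37 other p53 targets, 35 were tested: 14 were higher and 21 lower in recent KO, with a median of -0.09. Growth arrest genes had a median of -0.17 over 9 genes, and the smallest p belonged to the polo-like kinases Plk3 (0.56 ± 0.27) and Plk2 (-0.40 ± 0.29) and to the antiproliferative gene Btg2 (-0.50 ± 0.26). Cell death genes had a median of -0.07 over 10 genes and held 4 of the 7 genes with an unadjusted p under 0.05. Of these 4, 3 were higher and 1 lower, where 4.89% of all genes were higher and 5.35% lower at that threshold. Perp, a membrane protein, was at 2.88 to 7.27 CPM in WT and 5.55 to 13 CPM in recent KO (log2 fold change 0.74 ± 0.26, adjusted p = 0.331, edgeR). The death receptor Tnfrsf10b was at 1.26 to 2.88 and 1.61 to 4.20 CPM (0.75 ± 0.30, adjusted p = 0.409), and Siva1 at 298 to 337 and 319 to 365 CPM (0.14 ± 0.06, adjusted p = 0.449). Ei24 leaned the other way, at 1.78 to 5.19 CPM in WT and 0.42 to 2.67 CPM in recent KO, with the WT maximum in replicate 1 alone (-1.15 ± 0.47, adjusted p = 0.417). Targets in repair, redox control and metabolism had a median of -0.09 over 16 tested genes, Gls2 and Ddit4 being too low. Gpx1, a glutathione peroxidase, was at 9166, 10487, 11465, 11167 and 9009 CPM in WT and 8790, 7470, 8425, 8403 and 8633 CPM in recent KO. Each recent KO sample lay below each WT sample, and the log2 fold change was -0.30 ± 0.10 (adjusted p = 0.331 by edgeR and 0.0331 by DESeq2). Xpc, which recognises damaged DNA, had a log2 fold change of -0.25 ± 0.10 (adjusted p = 0.417), and Polk, a translesion polymerase, of -0.25 ± 0.20 (adjusted p = 0.744).

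Genes that sense and mend double-strand breaks had a median of -0.04 over 18 genes, 5 higher and 13 lower. Their smallest p belonged to Brca1 (0.25 ± 0.14) and the end-joining gene Xrcc5 (0.40 ± 0.22), which were higher in estimate, and to Nbn (-0.15 ± 0.09), which was lower; 0 of the 18 reached an unadjusted p under 0.05. Cell cycle genes that p53 lowers through p21 and the DREAM complex had a median of 0.00 over 16 genes, 8 higher and 8 lower. Ccnb1, encoding the mitotic cyclin B1, was at 213, 227, 217, 220 and 219 CPM in WT and 242, 251, 241, 248 and 230 CPM in recent KO. Its groups did not overlap, and its log2 fold change was 0.15 ± 0.05 (unadjusted p = 0.0098, adjusted p = 0.298, edgeR). Top2a (-0.09 ± 0.06) and Cks2 (0.13 ± 0.12) had the next smallest p in this list.

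**Figure D5:**
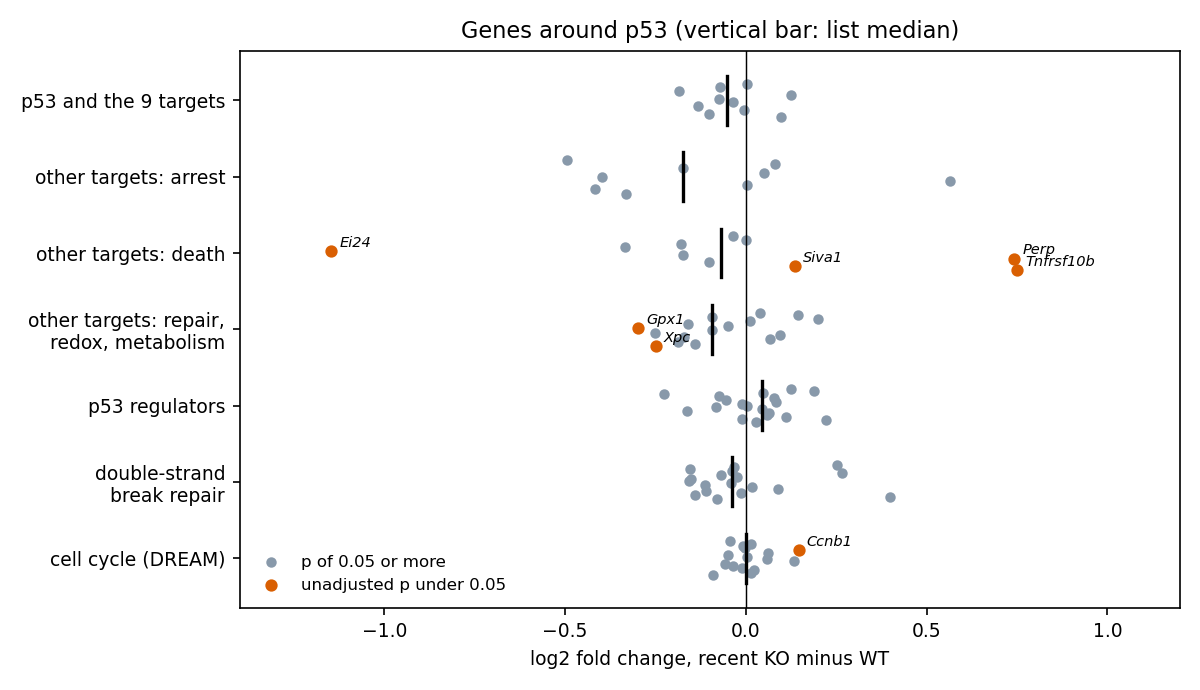
Log2 fold change, recent KO minus WT, for each tested gene of the 10 members and 6 further lists, with a vertical bar at each list's median. The 7 genes with an unadjusted p under 0.05 are orange and named; none passes after adjustment by edgeR, and the list medians lie between -0.17 and 0.04.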

How the data were processed

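The deposited files gave estimated counts and TPM per transcript for each sample. Per the labels and the study's methods, the authors sorted GMPs, amplified RNA with SMARTseq V4, sequenced paired ends on a NovaSeq and ran Salmon 1.5.1 on Gencode M27 (GRCm39). The study's table of fold changes and p-values from DESeq2 2.11.40.6 was not used.

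Transcripts were summed to genes through Gencode M21 (GRCm38), an older annotation, which held 137161 of 140789 transcripts and left 0.348 to 0.390% of reads unmatched; positions are GRCm38. Sums were rounded, filtered (filterByExpr, minimum count 10), scaled by TMM and tested with edgeR 4.0.16 (quasi-likelihood, Benjamini-Hochberg over 12381 genes, threshold 0.05), after a test on simulated data. SEs and 95% intervals come from that fit. DESeq2 1.42.0 and limma 3.58.1 on log2(TPM + 1) were alternatives. Transcript shares and single genes were tested by exact permutation. BLAST 2.17.0 found no other gene at least 95% identical to a member over 300 bases.

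Members and lists were chosen with earlier results of these data known. Named were all members, Mpc2, and in each further list the 3 smallest p where fewer than 3 genes passed; Siva1 was added for its unadjusted p. Floors cover counting error only, and intervals the spread between samples. Recent KO samples are pools, so p-values measure the spread between these samples.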

Additional observations from a re-analysis of the deposited data

Results flagged for a closer look

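Within the WT group, 2 values stood far from the other 4 samples by Dixon's test at the 95% level, out of 58 groups of 5 examined; chance flags about 1 in 20 groups, here 2.9. Trp53inp1 was at 7.27 CPM in WT replicate 2, where the other WT samples held 3.17 to 4.06 CPM. Ei24 was at 5.19 CPM in WT replicate 1, where the other WT samples held 1.78 to 2.56 CPM; 8 of the 9 annotated Ei24 transcripts were in the files used here.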

How the results depend on the processing

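Under each alternative run (11 other settings and 10 fits that left out a sample), 0 members were called. Genes called overall numbered 41, and 206 with no filter on low counts, 156 with DESeq2, 25 with limma on log2(TPM + 1), 24 on log2(TPM + 0.1) and 13 on log2(TPM + 1) with no filter. Leaving out a sample gave 25 to 91, the highest without recent KO replicate 2. Scaling by library size alone called 26 higher and 20 lower, and made the median of the members 0.02; it was also above 0 without WT replicate 2 (0.05), recent KO replicate 1 (0.01) or recent KO replicate 2 (0.04). In the further lists DESeq2 called 1 gene, Gpx1. Replicate numbers did not pair the samples: same-numbered samples correlated at -0.17 to 0.04 and 0 of 10 samples correlated best with their own number; with the replicate block 20 genes were called.

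Estimates near 0 changed sign with the cause not tested. Trp53 was at 0.0118 with the upper quartile, 0.0664 with library size and 0.0515, 0.0519 and 0.0515 in the 3 limma fits. Mdm2 was at 0.00491, Ccng1 at 0.0066 and Phlda3 at 0.0388 with library size. Bbc3 was at -0.21 with length offsets, -0.00347 with the replicate block, and -0.15, -0.19 and -0.15 in the limma fits. Leaving out a sample gave -0.0367 to 0.0277 for Trp53, -0.13 to 0.0233 for Mdm2, -0.0924 to 0.13 for Bbc3, -0.31 to 0.15 for Pmaip1, -0.14 to 0.0312 for Ccng1, -0.23 to 0.15 for Trp53inp1, -0.13 to 0.12 for Phlda3, -0.12 to 0.35 for Eda2r and -0.0565 to 0.27 for Zmat3. Mpc2 stayed lower but had an adjusted p of 0.0741 with length offsets, 0.134 with robust dispersions, 0.0577 with the replicate block, 0.05002 without recent KO replicate 1 and 0.130 to 0.411 with limma. Trp53inp1 and Zmat3 were under a mean of 1 TPM and so had no value in the filtered limma fits. Eda2r stayed above 0 over the 11 other settings, at 0.04 with the replicate block to 0.46 with length offsets. It rested on 10 to 67 reads per sample and Zmat3 on 24 to 101, which limits how small a difference could be seen.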
